A study of Mus musculus with 2 samples.

Results

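Goblet cells are the mucus-secreting cells of the intestinal epithelium. They were taken here as the cell barcodes with at least 1000 unique molecular identifiers (UMIs, each counting 1 captured transcript), at least 300 genes, at most 50% mitochondrially encoded UMIs, at least 1 Epcam UMI, no Ptprc UMI, and at least 15 UMIs of Muc2, Fcgbp and Clca1 together. Epcam marks epithelium and Ptprc marks leukocytes. This rule selected 203 of 12652 barcodes, 148 of 6270 in the Tg library and 55 of 6382 in the FMTg library. The members were thus chosen by measured levels of 3 genes, and those levels describe the choice and support nothing.

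The libraries come from the small intestine of 1 Tg and 1 FMTg mouse, both of strain C57BL/6j and aged 60 days. The Tg mouse was Mdm2+/- Cag-CreERTg and the FMTg mouse Mdm2FM/- Cag-CreERTg, so both carried an Mdm2-null allele and the Cag-CreERTg transgene, and differed in the other Mdm2 allele. Both received a single tamoxifen injection of 6 mg per 40 g body weight, and tissue was taken 24 hours later. The labels describe FMTg as losing Mdm2 with acute p53 activation and Tg as keeping it, and the comparison asks how goblet cells differ between these states. The Cag promoter is active in most tissues, so recombination was not directed to goblet cells or to epithelium, and its extent was not measured here. With 1 mouse and 1 library per genotype, no difference below has a replicate check, genotype and library cannot be told apart, and no test was possible. All intervals are at 95% and cover counting error only.

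Goblet cells arise from crypt progenitors under the transcription factor Atoh1 and mature under Spdef. They fold, glycosylate and store the mucin Muc2 in granules, and release it with partner proteins that form the mucus gel and keep bacteria off the epithelium. Mdm2 is the ubiquitin ligase that holds p53 in check, and is itself a p53 target together with Cdkn1a, the gene of the cell cycle brake p21.

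The libraries held 54013005 UMIs in Tg and 49805718 in FMTg, with a median of 5509 and 5109 UMIs per barcode. They shared 14 barcode sequences, none of them among the goblet barcodes. After the limits on UMIs, genes and mitochondrial share, 2892 Tg and 3408 FMTg barcodes had Epcam, of which 1388 and 2188 had no Ptprc and form the epithelial set below. Goblet barcodes had a median of 18052 UMIs in Tg and 15431 in FMTg, a median of 2634.5 and 2588 genes, and a median mitochondrial share of 13.5% and 13.0%. Their nuclear-encoded UMIs summed to 2540354 in Tg and 759885 in FMTg. Levels are given as UMIs per 1000000 nuclear-encoded UMIs (CPM), and ratios as log2 of the FMTg level over the Tg level.

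The goblet identity held up in genes that the rule did not use for most barcodes, but not for all. The 18 secreted products described below took under 5% of nuclear-encoded UMIs in 6 Tg and 2 FMTg barcodes. These barcodes stay in the sums reported. The 18 include Muc2, Fcgbp and Clca1, so a higher share is partly set by the rule and is no separate check. Atoh1 was detected (1 or more UMIs) in 110 of 148 Tg (74.3%) and 42 of 55 FMTg goblet barcodes (76.4%), against 0.806% and 0.516% of the other epithelial barcodes. Spdef was detected in 63.5% and 63.6% of goblet barcodes, against 0.161% and 0.328% of the other epithelium. Background RNA was low for both factors, since Ptprc-positive barcodes without Epcam had Atoh1 in 0.273% and 0.0683% and Spdef in 0.0909% and 0.205%. Those barcodes had a median of 4207 and 4094 UMIs. The depth behind these shares differs, and after thinning each barcode to 2000 nuclear-encoded UMIs Atoh1 was found in 31.5% of 130 Tg and 30% of 50 FMTg goblet barcodes, with 18 and 5 shallower barcodes left out. The trefoil peptide gene Tff3 took a median of 8.30% of nuclear-encoded UMIs in Tg and 7.93% in FMTg goblet barcodes, against 0.0322% and 0.00795% in Ptprc-positive barcodes. Its detection alone does not mark goblet cells, since 73.1% and 50.5% of Ptprc-positive barcodes had a UMI of it. Spink4, a protease inhibitor of goblet cells, was detected in 97.3% and 92.7% of goblet barcodes, against 16.7% and 9.69% of Ptprc-positive ones. Agr2, the disulfide isomerase needed for Muc2 production, was detected in 96.6% and 94.5%, against 6.36% and 3.75%.

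The proliferation gene Mki67 and the stem cell genes Lgr5 and Olfm4 had no UMI in any goblet barcode. A count of 0, with 3 barcodes as the limit, allows a share of barcodes with a UMI of up to 2.03% in Tg and 5.45% in FMTg. The tuft cell gene Dclk1 was also at 0. Mki67 was present in 1.69% of the other Tg and 3.28% of the other FMTg epithelial barcodes. Other members of these lists were found in goblet barcodes. Of 31 S phase genes 6 were measured, with 283 Tg and 78 FMTg UMIs over the list. Of 30 genes of G2 and M phase 4 were measured, with 1312 and 265 UMIs, of which the tubulin gene Tubb4b, named after its values were seen, held 1206 and 232. Of 16 stem and crypt genes 3 were measured, with 317 and 93 UMIs.

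Few barcodes lay near the mucin limit. In Tg, 3 epithelial barcodes had 10 to 14 mucin UMIs and 2 had 15 to 19, whereas 120 had 500 or more. In FMTg no barcode fell in either of the low bins and 42 had 500 or more. The Tg barcodes just outside the limit held 9, 10, 10 and 13 mucin UMIs, and those just inside 16, 16, 22 and 23. The FMTg barcode nearest below held 8, and those nearest above 21, 21 and 30. The rule on Ptprc removed 10 Tg and 5 FMTg barcodes that met every other condition, and the rule on Epcam removed 7 and 2.

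Goblet barcodes made up a smaller part of the epithelial barcodes in FMTg than in Tg. The share was 10.7% in Tg (148 of 1388, Clopper-Pearson interval 9.09 to 12.4) and 2.51% in FMTg (55 of 2188, 1.90 to 3.26). Among barcodes with at most 25% mitochondrial UMIs it was 18.6% (120 of 645) and 7.17% (41 of 572). Among those over 25% and up to 50% it was 3.77% (28 of 743) and 0.866% (14 of 1616), so the order was the same on both sides of that split while both shares moved. As a share of all barcodes that passed the limits on UMIs, genes and mitochondrial UMIs, whatever their type, goblet barcodes were 3.48% in Tg and 1.07% in FMTg. Mitochondrial share moved with genotype in the denominator: 743 of 1388 Tg and 1616 of 2188 FMTg epithelial barcodes were over 25%. The part that dissociation and cell capture play in these shares was not tested.

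Many goblet barcodes also held RNA of enterocytes, the absorptive cells. A list of 14 enterocyte genes took more than 2% of nuclear-encoded UMIs in 40 of 148 Tg (27.0%) and 19 of 55 FMTg goblet barcodes (34.5%). Summed over goblet barcodes the list held 2.12% of nuclear-encoded UMIs in Tg and 2.76% in FMTg, against 8.24% and 9.53% in the other epithelium. Most of its genes went the other way from this sum in goblet barcodes, with a median log2 ratio of -0.95. By 1.5-fold or more 10 of 14 were lower in FMTg and 3 higher, beside 25.4% and 14.6% of all genes. All 14 enterocyte genes reached 20 UMIs in goblet barcodes, and the apolipoprotein gene Apoa1 was detected in 98.0% of Tg and all FMTg goblet barcodes. Apoa1 also had a UMI in 97.1% and 96.0% of Ptprc-positive barcodes without Epcam, so its detection alone does not mark enterocytes. The source of its UMIs in goblet barcodes was not tested. The barcodes over 2% were deep, with a median of 21777.5 UMIs in Tg and 20985 in FMTg, against 15793 and 11552 in the others. A doublet score removed 19 Tg goblet barcodes, 15 of them over 2%, and 5 FMTg goblet barcodes, all 5 over 2%. Main results below are therefore given over all goblet barcodes. Most lists and genes are also given over the 108 Tg and 36 FMTg barcodes with at most 2%, called the enterocyte-poor subset here. This limit was set after the data had been seen. It did not make enterocyte RNA equal, since the list still held 0.603% in Tg and 0.285% in FMTg. There 13 of its 14 genes were at least 1.5-fold lower in FMTg, beside 14.7% of all genes. The part of this difference in the subset ratios below was not tested.

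**Figure D1:**
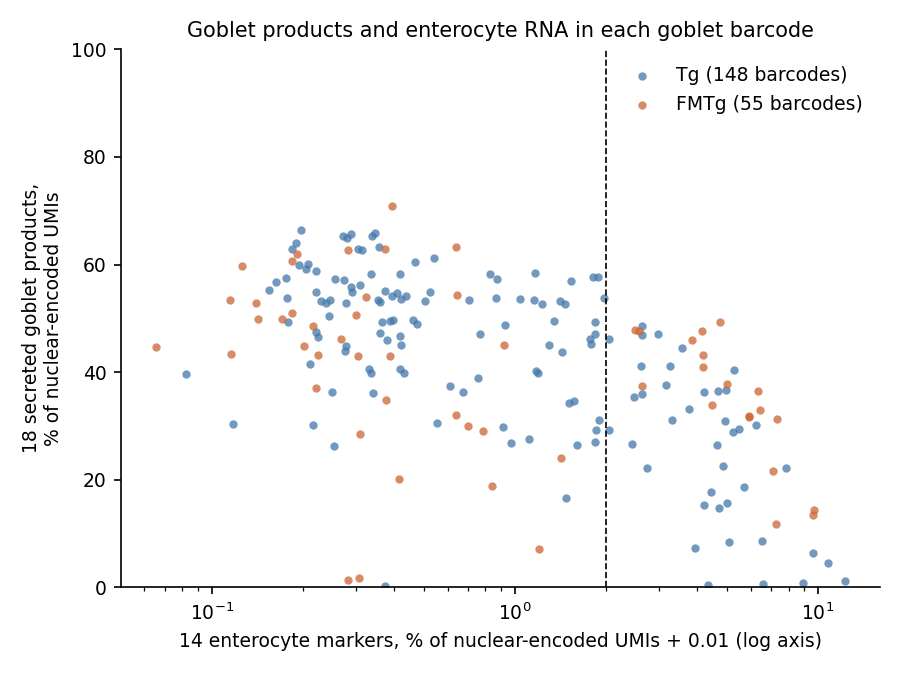
Each point is 1 goblet barcode, with the share of nuclear-encoded UMIs from 14 enterocyte markers (plus 0.01, log axis) against the share from 18 secreted goblet products. Points left of the dashed line at 2% are the 108 Tg and 36 FMTg enterocyte-poor barcodes, whose median shares of goblet products are 52.8% and 44.9%.

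Secreted products dominated the transcripts of these barcodes in both genotypes. The 18 products took 42.7% of nuclear-encoded UMIs in Tg and 43.0% in FMTg. Per barcode the share ran from 0.291% through a median of 46.6% to 66.5% in Tg, and from 1.43% through 43.1% to 70.8% in FMTg. It was under 5% in 6 Tg and 2 FMTg barcodes, which the rule kept because it counts mucin UMIs and not their share. In the enterocyte-poor subset the median barcode held 52.8% in Tg and 44.9% in FMTg.

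Of the 18 secreted products, 16 had at least 20 UMIs over both libraries. Their median log2 ratio was -0.07, with 2 genes 1.5-fold or more above Tg and 5 as far below, beside a median of -0.11 over all 7326 genes measured in goblet barcodes. Among all those genes 14.6% were higher in FMTg by 1.5-fold or more and 25.4% lower. In the enterocyte-poor subset the median of 15 measured products was 0.08, with 3 higher and 3 lower. Without Muc2, Fcgbp and Clca1, which chose the barcodes, the median was -0.07 over all goblet barcodes and -0.08 in the subset. There 20.6% of all 5641 measured genes were at least 1.5-fold higher and 14.7% lower, and their median was 0.09.

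The 3 genes that chose the barcodes are given as a description. Muc2, the gel-forming mucin, was at 14753 CPM in Tg against 19332 in FMTg, which gives a log2 ratio of 0.39 (0.36 to 0.42), and the ratio was also 0.39 in the enterocyte-poor subset. Fcgbp, a large mucus protein that binds Muc2, was at 42216 and 47898 CPM (0.18), and at 0.23 in the subset. Clca1, the mucus metalloprotease, was at 21897 and 20152 CPM (-0.12), at 0.02 in the subset and at -0.93 over 25% mitochondrial UMIs. Tff3, which the rule did not use, was at 75025 and 85967 CPM, a ratio of 0.20, and at 0.08 in the subset. Spink4 was at 10285 and 9917 CPM, a ratio of -0.05. It stood at 0.42 in the enterocyte-poor subset.

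Zg16, a lectin that binds Gram-positive bacteria, was the most abundant of these products. It was at 255640 CPM in Tg against 243500 in FMTg, which gives a log2 ratio of -0.07 over all goblet barcodes and -0.26 in the enterocyte-poor subset. Per barcode Zg16 took from 0.0607% to 52.1% of nuclear-encoded UMIs in Tg, with a median of 22%, and from 0.00925% to 45.9% in FMTg, with a median of 17.6%. The ranges overlapped almost entirely.

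Ang4 and Itln1, a pair of antimicrobial products, were the secreted products with the lowest FMTg to Tg ratios among those with over 100 UMIs. Ang4, an antimicrobial ribonuclease, was at 1786 CPM in Tg (4536 UMIs) against 426.4 in FMTg (324 UMIs), with a log2 ratio of -2.07 (-2.23 to -1.90). It was detected in 108 of 148 Tg and 31 of 55 FMTg goblet barcodes, and the median barcode held 5.03 and 0.783 UMIs per 10000 nuclear-encoded UMIs. At a fixed depth of 2000 UMIs Ang4 was found in 57.7% of Tg and 32% of FMTg goblet barcodes. The barcode with the most Ang4 UMIs held 19.4% of them. The ratio was -1.95 in the enterocyte-poor subset, -2.02 at up to 25% mitochondrial UMIs and -2.37 above that. In the other epithelial barcodes, where Ang4 was near background with a UMI in 3.87% and 0.656%, against 3.45% and 0.614% of Ptprc-positive barcodes, the ratio was -2.03.

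Itln1 encodes intelectin, a lectin for microbial sugars. It was at 1516 CPM in Tg (3850 UMIs) against 558 in FMTg (424 UMIs), with a log2 ratio of -1.44 (-1.59 to -1.30), and at -1.25 in the enterocyte-poor subset. The gene was detected in 74.3% and 70.9% of goblet barcodes, and at a fixed depth of 2000 UMIs in 57.7% and 46.0%, and the median barcode held 4.54 and 3.25 UMIs per 10000. The difference in sums lay in the highest barcodes, which reached 177 per 10000 in Tg and 44.4 in FMTg. In the other epithelium Itln1 had the opposite direction, with 162 UMIs in Tg and 397 in FMTg and a ratio of 1.0 (0.73 to 1.27). It had a UMI there in 9.35% and 12.3% of barcodes, above the 2.73% and 2.66% of Ptprc-positive barcodes. These shares are not at equal depth. The other epithelial barcodes had a median of 10897 and 8730 UMIs, against 4207 and 4094 in Ptprc-positive ones.

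**Figure D2:**
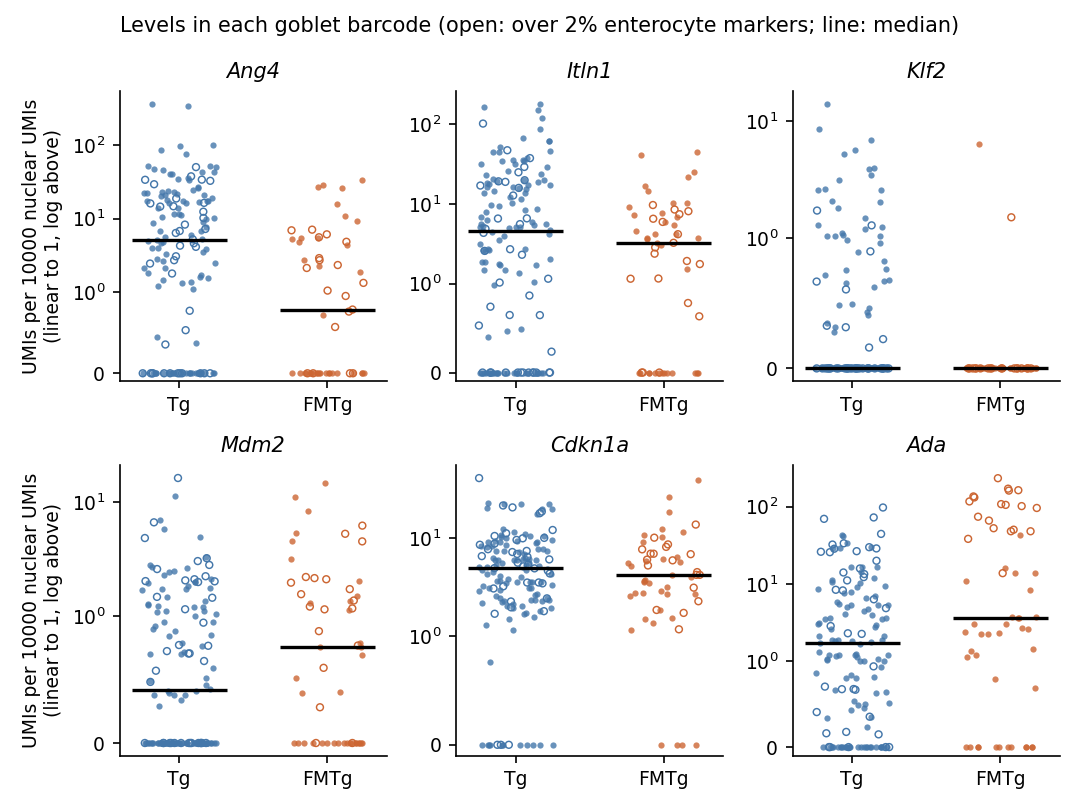
UMIs per 10000 nuclear-encoded UMIs of 6 genes in each of 148 Tg and 55 FMTg goblet barcodes, on an axis that is linear to 1 and logarithmic above, with the median as a line and barcodes over 2% enterocyte markers as open circles. Ang4 medians stand at 5.03 and 0.783, Klf2 is at 0 in all but 2 FMTg barcodes, and FMTg Ada reaches 43.4 in filled and 234 in open circles.

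Other secreted products differed less or rested on few molecules. Klk1, a kallikrein protease, was at 744 CPM in Tg against 447.4 in FMTg, which gives a log2 ratio of -0.73 (-0.90 to -0.57) and of -0.72 in the enterocyte-poor subset. The chemokine Ccl6 was at 1440 and 821.2 CPM, a ratio of -0.81 that stood at -0.25 in the enterocyte-poor subset. Clps, the pancreatic lipase cofactor colipase, was at -0.07, and at -0.25 in the enterocyte-poor subset. Retnlb, a resistin-like goblet product, was at 0.05 (-0.54 to 0.61), and at 0.84 (0.20 to 1.45) in the subset on 76 and 32 UMIs. Ccl9 was at -0.48 (-1.71 to 0.58) on 42 and 9 UMIs. Mptx1, a pentraxin, was higher in FMTg with 59 Tg and 47 FMTg UMIs, a ratio of 1.41 (0.83 to 1.99), but was seen in only 16 and 7 barcodes. Sval1, at 1.53, was seen in 8 and 2. Dmbt1, a scavenger-receptor mucosal protein, was at -1.13 (-2.66 to 0.10) over all goblet barcodes and at 1.87 (0.02 to 3.66) in the enterocyte-poor subset, on 7 and 6 UMIs.

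**Figure D3:**
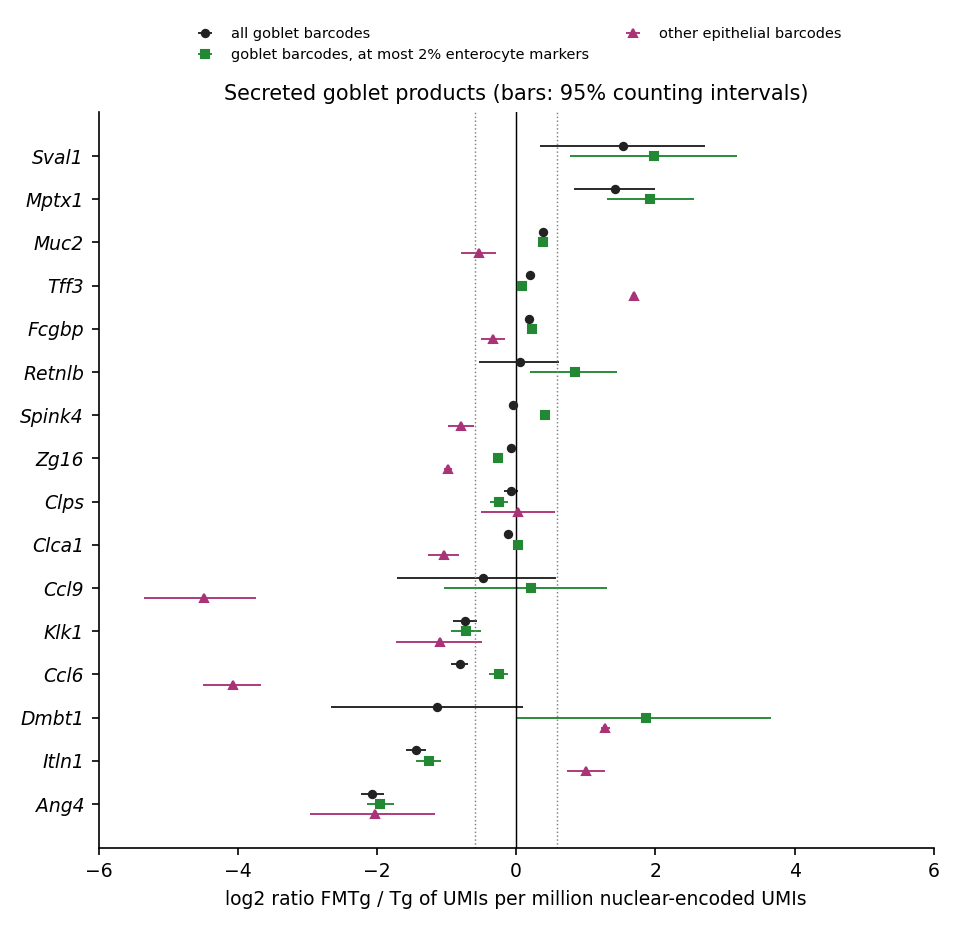
Log2 ratios of FMTg over Tg with 95% counting intervals for the 16 secreted products with at least 20 UMIs, over all goblet barcodes (circles), the enterocyte-poor subset (squares) and the other epithelial barcodes (triangles). Dotted lines mark 1.5-fold, with Ang4 at -2.07, -1.95 and -2.03 from top to bottom of its group and Itln1 at -1.44, -1.25 and 1.0.

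The machinery that folds and exports mucins was lower in the FMTg sum, and this depended on which barcodes were summed. Of 40 genes 38 were measured, with a median log2 ratio of -0.40, no gene higher by 1.5-fold and 14 lower. Of all genes 14.6% were that much higher and 25.4% lower. In the enterocyte-poor subset the list median was 0.07, with 5 higher and 4 lower, beside 20.6% and 14.7% of all genes. The split by mitochondrial share also divided this list, with a median of -0.53 up to 25% and 0.48 over 25%. The latter came from 29 measured genes and 14 FMTg barcodes. Those barcodes ranged up to 7.37% of nuclear-encoded UMIs in this list, with the next at 3.34% and 3.07%, against 1.08% in their sum. These highest barcodes also held 382, 141 and 165 Agr2 UMIs per 10000. Agr2 was at 4216 CPM in Tg against 2693 in FMTg, a ratio of -0.65 (-0.72 to -0.58), at -0.36 in the enterocyte-poor subset, -0.87 up to 25% mitochondrial UMIs and 1.22 above. The translocon subunit gene Sec61b was at -1.21 (-1.60 to -0.84) and kept a ratio of -0.83 (-1.31 to -0.39) in the enterocyte-poor subset. Ssr2, of the translocon-associated complex, was at -1.02 and -0.77. Spcs2, a signal peptidase subunit, was at -1.15 and -0.33, and Ostc, of the oligosaccharyltransferase, at -0.98 and -0.43. The chaperone Hspa5 was at -0.51 and -0.11, the lectin chaperone Calr at -0.08 and 0.29, and Qsox1, a disulfide-forming oxidase, at 0.25 and 0.16.

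Genes that build mucin sugars stood near the background of all genes. The 29 measured members had a median log2 ratio of -0.20, with 3 higher and 8 lower, beside a median of -0.11 with 14.6% higher and 25.4% lower over all genes. The list's median was 0.04 in the enterocyte-poor subset. Gcnt3, which branches mucin O-glycans, was at 447.2 CPM in Tg against 469.8 in FMTg (0.07), and at 0.19 in the subset. Slc26a2, a sulfate transporter, was at -0.20 over all and 0.55 (0.32 to 0.77) in the enterocyte-poor subset. Papss2, which makes the sulfate donor, was at -1.82 over all and -0.30 (-0.95 to 0.31) in the subset, and 17.5% of its UMIs were in 1 barcode. The sialyltransferase gene St3gal4 was at -0.69 and -0.77, the fucosyltransferase gene Fut4 at -1.0 and -0.78, and Gmds, of GDP-fucose synthesis, at -0.93 and -0.22.

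The secretory transcription factors differed little. Of 13 measured, 1 was at least 1.5-fold higher and 2 were lower, beside 14.6% and 25.4% of all genes. Their median log2 ratio was -0.06, and -0.03 in the enterocyte-poor subset. Atoh1 was at 228.7 CPM in Tg against 194.8 in FMTg, a ratio of -0.23 (-0.50 to 0.03), and at -0.33 in the subset. Klf4, a factor of terminal goblet differentiation, was at 790.4 and 902.8 CPM (0.19), and at -0.03 in the subset. Xbp1, the factor of the secretory stress response, was at 268.1 and 214.5 CPM (-0.32), and at -0.26 in the subset. Elf3, an epithelial ETS factor, was at 0.49, and at 0.13 in the enterocyte-poor subset. Foxa1 was at 0.93 (0.22 to 1.61) on 51 and 29 UMIs, and the intestinal factor Cdx2 at -1.03 (-1.88 to -0.26) on 109 and 16. The same list stood at a median of 0.61 in the other epithelium, where 6 of 12 were higher by 1.5-fold or more. Of all genes measured there 19.4% were that much higher and 9.98% lower.

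Granule and channel genes had a median of -0.32 over 19 measured members, and of 0.03 in the enterocyte-poor subset. Scin, an actin-severing protein, was at 359 CPM in Tg against 148.7 in FMTg, a ratio of -1.27 (-1.57 to -0.99), and at -0.62 (-0.94 to -0.31) in the subset. Sytl2, which tethers secretory granules, was at 354.7 and 431.6 CPM (0.28), the granule fusion gene Vamp8 at 0.17 and the granule GTPase gene Rab27b at 0.13. Syt7, a calcium sensor of exocytosis, was at 1.1 (0.47 to 1.61) over all and 1.59 (0.93 to 2.23) in the subset, on 71 and 44 UMIs over all. Nlrp6, an inflammasome sensor linked to mucus release, had 91 Tg and 2 FMTg UMIs, a ratio of -3.77 (-6.83 to -1.87). In the subset it had only 13 and 1 UMIs, so most of its UMIs lay in barcodes with more enterocyte RNA, and the other epithelium gave -1.08.

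Mdm2 RNA was higher in FMTg goblet barcodes. It was at 89.0 CPM in Tg (226 UMIs) against 144.8 in FMTg (110 UMIs), with a log2 ratio of 0.70 (0.36 to 1.04), and at 0.81 (0.25 to 1.34) in the enterocyte-poor subset on 102 and 42 UMIs. Mdm2 was detected in 82 of 148 Tg and 35 of 55 FMTg goblet barcodes, and the median barcode held 0.42 and 0.757 per 10000. At 2000 UMIs it was found in 13.8% and 26.0%, each near the level of 1 UMI. The other epithelium gave 0.95. The enterocyte-poor subset includes 2 FMTg barcodes with under 5% secreted products, which held 4.54 and 11.1 Mdm2 UMIs per 10000. Both values lie above the FMTg goblet median of 0.757, so the Mdm2 ratio of the subset rests in part on these 2 barcodes. That ratio without them was not computed. A count of 3' ends does not show whether a transcript comes from an intact allele, and the sources used here do not say which bases the FM allele loses, so Mdm2 counts do not check the genotype labels. Mdm4, the partner of Mdm2, was at 0.00 over all and 0.92 (0.35 to 1.47) in the subset. Trp53 itself had 15 and 6 UMIs, too few for a direction (0.42, -1.23 to 1.87).

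Cdkn1a stood level between genotypes in the goblet sum. Goblet barcodes held 631 CPM in Tg (1603 UMIs) against 613.3 in FMTg (466 UMIs), with a log2 ratio of -0.04 (-0.19 to 0.11). The ratio was 0.25 (0.04 to 0.45) in the enterocyte-poor subset and 0.65 (0.62 to 0.69) in the other epithelial barcodes. Of the 2 FMTg subset barcodes with under 5% secreted products, 1 held 39.8 Cdkn1a UMIs per 10000 and the other 9.08. The Cdkn1a ratio of the subset rests in part on these 2 barcodes and was not computed without them. Cdkn1a was detected in 90.5% of Tg and 92.7% of FMTg goblet barcodes, with a median of 4.94 and 4.23 UMIs per 10000. At a fixed depth of 2000 UMIs it was found in 62.3% and 66.0%, against 12.5% and 13.4% of Ptprc-positive barcodes. Ratios of the goblet and the other epithelial barcodes come from the same libraries, and their difference was not tested.

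The wider p53 target list was split in the same way. Of 46 targets 35 were measured in goblet barcodes, with a median log2 ratio of 0.01, 8 higher by 1.5-fold or more and 5 lower. Of all genes in goblet barcodes 14.6% were that much higher and 25.4% lower. In the enterocyte-poor subset 30 were measured, with a median of 0.55, 14 higher and 2 lower. Of all genes in the subset 20.6% were higher and 14.7% lower by that size. Of its 36 FMTg barcodes, 2 had under 5% secreted products, and p53 targets took 1.19% and 1.83% of their nuclear-encoded UMIs. Of its 108 Tg barcodes 1 did, with p53 targets at 0.315%. Both FMTg values lie far above the 0.329% that the list took in the FMTg sum of the subset. That sum thus rests in part on these 2 barcodes. Medians and sums of the subset without the barcodes under 5% were not computed. In the barcodes over 2% the median of 28 measured targets was -0.44. The other epithelium had a median of 0.63 over 46 measured targets, with 24 higher and 1 lower, where 19.4% of all 12267 measured genes were higher and 9.98% lower by that size. The list took 0.285% of nuclear-encoded UMIs in Tg and 0.298% in FMTg goblet barcodes, and 0.25% and 0.329% in the enterocyte-poor subset.

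Single targets showed how far the subsets differ. The small GTPase gene Rap2b was at 9.84 CPM in Tg against 43.4 in FMTg, a ratio of 2.14 (1.35 to 2.95), and at 1.84 in the enterocyte-poor subset, on 25 and 33 UMIs over all. Trp53inp1, a p53 cofactor, was at 33.9 and 60.5 CPM (0.84, 0.29 to 1.37) and at 1.6 (0.95 to 2.23) in the subset. The ribosomal protein paralog gene Rps27l was at -0.24 over all and 0.51 (0.25 to 0.77) in the subset. Bax, the pore-forming cell death gene, was at -0.28 and 0.59 (0.15 to 1.01). Pmaip1, which encodes the BH3-only protein Noxa, went the other way, at 0.73 (0.29 to 1.16) over all and -0.45 (-1.32 to 0.32) in the subset. The antiproliferative gene Btg2 was at -0.02 and -0.10, with an interval of -0.20 to 0.15 over all. The stress-response gene Sesn1 was at -0.73 (-1.94 to 0.31) on 50 and 9 UMIs.

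**Figure D4:**
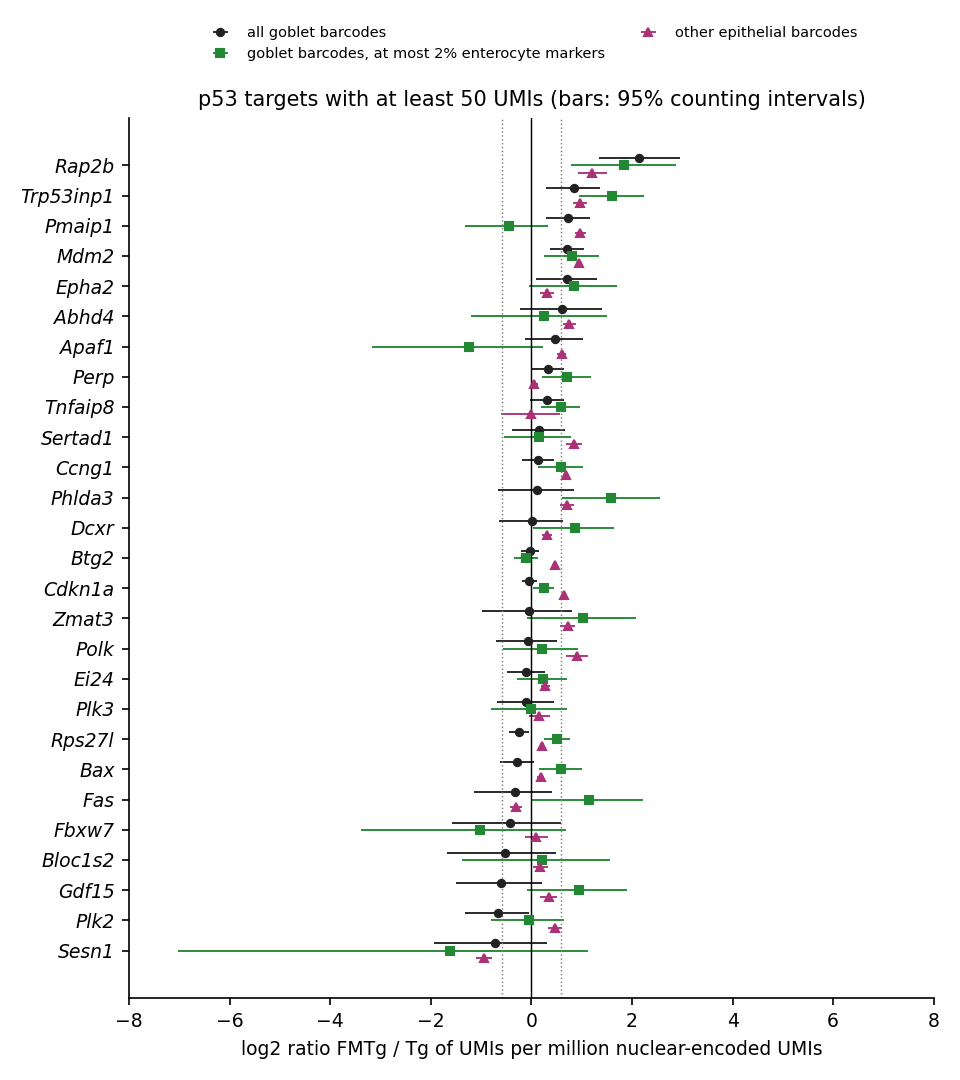
Log2 ratios of FMTg over Tg with 95% counting intervals for p53 targets with at least 50 UMIs in goblet barcodes, over all goblet barcodes (circles), the enterocyte-poor subset (squares) and the other epithelium (triangles). Rps27l and Bax lie below 0 over all goblet barcodes and above 0 in the subset, at 0.51 and 0.59.

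Genes of energy metabolism were lower in the FMTg sum. Of 84 nuclear genes of oxidative phosphorylation 76 were measured, with a median log2 ratio of -0.99, 1 higher by 1.5-fold and 67 lower. The enterocyte-poor subset gave -0.20, with none higher and 9 of 75 lower, and the barcodes over 2% gave -1.82. The other epithelium gave -0.52, with 28 of 77 lower. Of all genes measured, 25.4% were that much lower in goblet barcodes, 14.7% in the subset and 9.98% in the other epithelium. The shares higher were 14.6%, 20.6% and 19.4%. Cyc1, of complex III, was at -2.13 (-2.75 to -1.57) over all and -0.70 (-1.59 to 0.08) in the subset, and Atp5a1, of the ATP synthase, at -1.95 and -0.87 (-1.44 to -0.34). The cytochrome oxidase gene Cox4i1 was at 814.1 CPM in Tg against 452.7 in FMTg (-0.85), and at -0.25 in the subset. The 13 mitochondrially encoded genes, scaled to all UMIs, had a median of 0.07 and none passed 1.5-fold. The 18 measured antioxidant genes had a median of -0.67 with 9 lower, and -0.27 with 7 lower in the subset. Among them the peroxiredoxin gene Prdx1 was at -2.04 and -0.67, and the glutathione transferase gene Gsta4 at -1.10 (-1.28 to -0.92) and -0.85 (-1.06 to -0.64). The 77 measured ribosomal protein genes had a median of -0.28 over all, 0.19 in the subset and 0.55 in the other epithelium. Hk2, the hexokinase that starts glycolysis, was higher, at 91.3 CPM in Tg against 232.9 in FMTg, with a ratio of 1.35 (1.06 to 1.64) and of 1.34 in the subset, while the 17 glycolysis genes had a median of -0.39 over all and -0.02 in the subset.

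**Figure D5:**
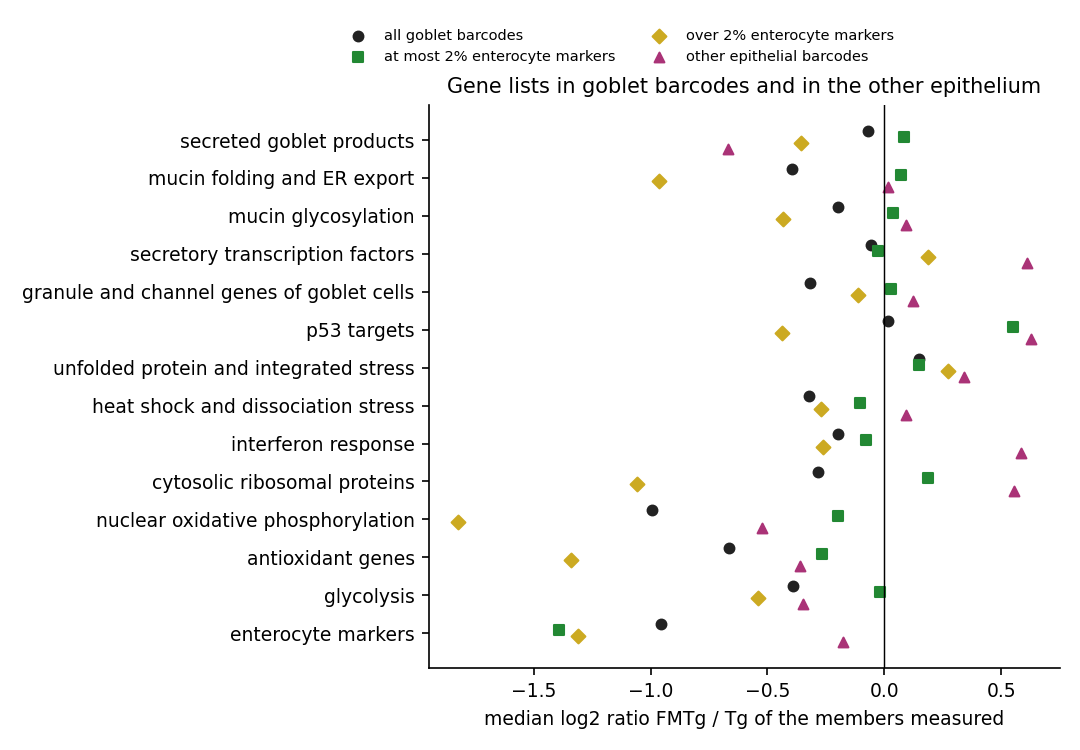
Median log2 ratio of FMTg over Tg for the measured members of 14 gene lists in all goblet barcodes (circles), barcodes with at most 2% (squares) and over 2% enterocyte markers (diamonds), and the other epithelium (triangles). Nuclear oxidative phosphorylation stands at -0.99 over all, -0.20 at or under 2% and -1.82 over 2%.

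Stress and interferon genes went in both directions. Atf3, an immediate stress factor, was at 68.5 CPM in Tg against 182.9 in FMTg, which gives a log2 ratio of 1.42 (1.08 to 1.75), and at 1.53 in the enterocyte-poor subset. Klf2, another immediate factor, was at 51.2 and 5.26 CPM, from 130 UMIs in 52 Tg barcodes and 4 UMIs in 2 FMTg barcodes. Its ratio was -3.28 (-5.18 to -1.89) in goblet barcodes and -1.11 in the other epithelium, and Klf2 is also a leukocyte gene, with a UMI in 33.3% and 27.2% of Ptprc-positive barcodes. The heat shock genes Hspa1a at -2.01 and Hspa1b at -1.28 were lower in FMTg here and, at -3.25 and -2.51, in the other epithelium, and the constitutive chaperone Hspa8 was at -0.84. In the subset Hspa8 was at -0.39 and Hspa1b at -1.72, the latter on 70 and 5 UMIs. These genes respond to tissue dissociation, and the part of the preparation in them was not tested. The interferon-induced genes Oasl1, at 1.11 (0.89 to 1.32), and Rsad2, at 1.49 (1.14 to 1.84), were higher in FMTg and stayed at 0.81 and 1.81 in the subset. Irf7, an interferon regulatory factor, was at 0.60 and -0.03. The immunoproteasome gene Psmb9 was lower, at -2.14 (-2.97 to -1.41) and -1.18. Over the interferon list 6 of 24 genes were at least 1.5-fold higher and 7 lower, beside 14.6% and 25.4% of all genes. The list median was -0.20 over all goblet barcodes and -0.08 in the subset, beside -0.11 and 0.09 for all genes.

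Across all genes, 3104 had enough UMIs and barcodes to be ranked, and the 12 at either end included several genes of absorptive cells. The lowest were Cmbl at -4.89 (-10.21 to -2.38), the apolipoprotein gene Apol10a at -4.23, the arginase gene Arg2 at -3.97, the mannose-binding lectin gene Mbl2 at -3.77, the sucrase gene Sis at -3.68, Exoc3l4 at -3.50, the glucose transporter gene Slc2a2 at -3.47, Fam213b at -3.40, Klf2 at -3.28, the antibacterial lectin gene Reg3b at -3.24, the chemokine gene Ccl25 at -3.23 and the fatty acid binding gene Fabp1 at -3.13. In the enterocyte-poor subset Reg3b stood at -0.83, Fabp1 at -1.02 and Mbl2 at -0.34. Arg2, at -3.43 (-6.50 to -1.54) on 92 and 2 UMIs, and Klf2, at -3.81 on 119 and 2, remained low there. Reg3g, the companion of Reg3b, was at -2.45 over all and 0.34 in the subset. All 12 of these were also lower in FMTg in the other epithelium, from -0.56 for Exoc3l4 to -1.86 for Arg2.

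The highest included the nucleotidase gene Nt5e at 4.43 (4.06 to 4.81), Clca4a at 3.49, the transglutaminase gene Tgm2 at 3.29, 2010109I03Rik at 3.15, the adenosine deaminase gene Ada at 3.01, Lhfpl2 at 2.65, the nucleoside transporter gene Slc28a2 at 2.57, the oxidase gene Duox2 at 2.55, Pmepa1 at 2.51, Slc23a4 at 2.42 and Tmcc3 at 2.41. Ada was at 604.6 CPM in Tg against 4867 in FMTg over all goblet barcodes but at -0.49 (-0.77 to -0.22) in the enterocyte-poor subset, and Clca4a, Slc28a2 and Slc23a4 were at -1.51, -1.56 and -2.00 there. Ada had a Spearman correlation with the enterocyte marker share of 0.82 over the 55 FMTg and 0.41 over the 148 Tg goblet barcodes, and of 0.42 and 0.48 in the subset. The barcodes behind each value share 1 library. Tmcc3 stayed at 2.54 (2.06 to 3.03) in the subset, on 65 and 89 UMIs. Tmcc3, a transmembrane coiled-coil protein, was found in 53 of 148 Tg and 31 of 55 FMTg goblet barcodes and differed little in the other epithelium (0.29). The genes named here were all higher in FMTg in the other epithelium, from 0.29 for Tmcc3 to 3.52 for Nt5e.

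Genes of the other secretory lineages were present at low levels in goblet barcodes. Of 10 Paneth cell markers 5 were measured, and the list held 0.348% of nuclear-encoded UMIs in Tg and 0.526% in FMTg, with a median barcode at 0.0393% and 0.0433% and 1 Tg barcode at 26.8%. Lyz1, the Paneth lysozyme, was at 450 and 14 UMIs in 42 and 8 barcodes, but 77.4% of all its UMIs lay in 1 barcode. Its ratio was -3.27 (-4.15 to -2.50) in goblet barcodes and 1.17 (0.60 to 1.76) in the other epithelium. The defensin gene Defa24 was at 0.79, with 37.6% of UMIs in 1 barcode, and the protease gene Mmp7 at 2.81, in 15 and 11 barcodes. The enteroendocrine genes Chga, at 2.0, and Chgb, at 1.5, were higher in FMTg, but came from 4 Tg and 4 FMTg barcodes for Chga and 9 and 6 for Chgb. Tph1, of serotonin synthesis, was seen in 1 Tg and 2 FMTg barcodes (45 and 144 UMIs), and the secretin gene Sct in 116 and 40 (0.54). The T cell gene Cd3e was found in 8 Tg and no FMTg goblet barcode, which allows a share of up to 5.45%. Stromal and haemoglobin genes were at 2 and 0 and at 10 and 5 UMIs in all.

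Pairs of products differed in how their shares varied among goblet barcodes. Over 148 Tg and 55 FMTg barcodes, the shares of Spink4 and Ccl6 had Spearman correlations of 0.63 and 0.66, and those of Agr2 and Spink4 of 0.54 and 0.70. Ang4 and Itln1 had 0.52 and 0.33, and Itln1 and the Paneth marker sum 0.44 and 0.68. Itln1 and Spink4 had 0.50 in Tg and 0.04 in FMTg, Ccl6 and Klk1 0.46 and -0.07, Itln1 and Ccl6 0.35 and -0.15, and Ang4 and Ccl6 0.31 and -0.21. Spink4 ran against the enterocyte marker share, at -0.44 and -0.58. In the enterocyte-poor subset Spink4 and Ccl6 kept 0.60 and 0.62, and Agr2 and Spink4 0.43 and 0.77. Barcodes of 1 library share depth and background RNA, so these values are descriptions.

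For reference in mm10, with positions from GENCODE M21, Muc2 lies on chromosome 7 at 141690340 to 141754693 on the plus strand, Ang4 on chromosome 14 at 51763878 to 51773590 on the minus strand, Itln1 on chromosome 1 at 171518122 to 171535294 on the minus strand, and Mdm2 on chromosome 10 at 117688875 to 117710758 on the minus strand. The counts are 3' tags per gene and were not assigned to exons. Ang4, Hspa1a, Hspa1b, Reg3b, Reg3g, Mptx1 and the Defa genes have close paralogs, and tags that fit more than 1 of them make these counts uncertain.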

How the data were processed

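Single-cell suspensions of small intestine were profiled with the 10x Genomics Chromium 3' protocol, per the labels' protocols. The authors deposited unnormalized UMI counts for each gene in each barcode. The submitters' processing notes list mm10 as the build, with CASAVA 1.8.1 and Cell Ranger 3.0. The release of the gene annotation was not named in them. Members and gene lists were chosen with earlier results of these data known.

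UMIs of the selected barcodes were summed per library and scaled to nuclear-encoded UMIs, mitochondrially encoded genes to all UMIs. A gene counted as measured with at least 20 UMIs over both libraries, and 1.5-fold was the size reported. A library at 0 was set to 3 counts. Intervals at 95% are exact conditional binomial for ratios and Clopper-Pearson for shares, and a share of 0 is given the limit of 3 barcodes of the total. Barcodes were thinned to 2000 nuclear-encoded UMIs for detection at equal depth. No doublets were removed from the values reported, and doublets scored with the scrublet method of scanpy 1.11.5 were removed in an alternative.

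Named were the 5 markers, secreted products with at least 20 UMIs, Mdm2, Trp53, Cdkn1a, up to 4 members per list by UMIs and by size of ratio with at least 50 UMIs, and the 12 highest and lowest ratios with at least 100 UMIs in at least 10 barcodes and at most 25% of UMIs in 1 barcode. Of the 12 highest, 1 is not reported here. The ranking left out Xist, Tsix, Y-linked, receptor-segment, mitochondrially encoded and ribosomal protein genes. Spdef, Apoa1, Cd3e and the proliferation, stem and tuft cell genes are named as identity checks. From 34 lists the text gives the genes that describe goblet cells. Of 31053 symbols 30416 matched 1 gene of GENCODE M21. The interval and ratio functions were tested on simulated data. Of 7126 genes simulated without a change, 16.25% still passed 1.5-fold in either direction. That simulation held counting error only and no variation among barcodes. Another 18 settings were run as alternatives, and 3 limits on enterocyte RNA were added after the goblet barcodes had been examined. TMM used edgeR 4.0.16 and size factors DESeq2 1.42.0, without a test. Calculations used scipy 1.17.1 and numpy 2.4.6 in Python 3.11.15, with pandas 2.3.3, matplotlib 3.10.9 and R 4.3.3.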

Additional observations from a re-analysis of the deposited data

Results flagged for a closer look

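Itln1 differed in direction between epithelial populations of the same libraries: its log2 ratio of FMTg over Tg was -1.44 in goblet barcodes and 1.0 in other epithelial barcodes. The difference was not tested, since each genotype has 1 library.

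Lyz1 also went opposite ways, at -3.27 in goblet barcodes and 1.17 in the other epithelial barcodes. Of its UMIs in goblet barcodes 77.4% lay in 1 barcode, and this difference was not tested either.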

How the results depend on the processing

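The FMTg share of goblet barcodes was below the Tg share under every setting run on the gate. The shares in Tg and FMTg were 18.6% and 7.17% up to 25% mitochondrial UMIs, 3.77% and 0.866% over 25%, 5.46% and 1.76% without the Ptprc rule, 5.84% and 1.55% at no more than 1% enterocyte markers and 7.78% and 1.65% at no more than 2%. Without a mitochondrial limit the Tg share was 5.88%. Counts of genes 1.5-fold higher and lower, 1072 and 1861 as reported, were 564 and 564 over 25% mitochondrial UMIs and 687 and 1090 with at least 50 UMIs. With at least 1 UMI 1627 genes were higher. Lower genes numbered 1222 without the 5% deepest barcodes, 603 at the 1% and 827 at the 2% enterocyte limit.

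The p53 target median, 0.01 as reported, was 0.42 over 25% mitochondrial UMIs and with equal weight per barcode, 0.47 and 0.55 at the 1% and 2% enterocyte limits, -0.16 with at least 50 mucin UMIs and -0.17 with mucin at no less than 1% of nuclear-encoded UMIs. The folding median, -0.40 as reported, was 0.48, 0.036, 0.013 and 0.069 under the first 4 of these. Mdm2 was at 1.11 and Cdkn1a at 0.42 over 25%, and Cdkn1a at 0.29 and 0.25 at the enterocyte limits. Dmbt1 changed sign most often, to 0.30 over 25%, 1.92 with equal weight, 0.91 without the deepest barcodes, and 2.73, 1.87 and 0.80 at enterocyte limits of 1%, 2% and 5%.

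Among ratios of 1.5-fold or more as reported, the sign also changed over 25% mitochondrial UMIs for Agr2 (1.22), Sec61b (0.11), Ostc (0.98), Gmds (0.018), Syt7 (-0.82), Sesn1 (0.98), Atf3 (-0.29), Hk2 (-0.023), Defa24 (-4.30) and Mmp7 (-1.02), and with equal weight for Ssr2 (0.037). At the 1% enterocyte limit it changed for Papss2 (0.81), Pmaip1 (-0.54), Reg3g (0.78), Mbl2 (0.031), Slc23a4 (-1.01) and Slc28a2 (-0.78). At 2% it changed for Pmaip1 (-0.45), Reg3g (0.34), Irf7 (-0.029), Ada (-0.49), Clca4a (-1.51), Tgm2 (-0.13), Slc23a4 (-2.0) and Slc28a2 (-1.56). Smaller ratios that crossed 0, such as those of Bax and Rps27l, are not listed here. The limits on mitochondrial and enterocyte share leave fewer barcodes and UMIs, and the cause of these changes was not tested.

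Size factors of DESeq2 moved the median of all genes by 0.11 and TMM by 0.09. No paired analysis was possible because each genotype has 1 library. Depth limits low genes: the 14 FMTg goblet barcodes over 25% mitochondrial UMIs and the 36 enterocyte-poor FMTg barcodes hold few UMIs of most transcripts.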
